A study of Mus musculus with 6 samples.

Results

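The mRNAs of oxidative phosphorylation were followed in MEL cells, a mouse erythroleukemia line held at the proerythroblast stage, at days 0, 2 and 4 of growth with 2% DMSO, which drives these cells along the erythroid lineage. Day 0 cells are the untreated state, and all groups are the same line, so the cells model erythroid maturation in a transformed line rather than in an animal. There were 2 cultures per day, and 6 poly(A)-selected libraries in all, each given as raw read counts on RefSeq transcripts. The members are the genes whose symbols start with Nduf followed by a, b, c, s or v and a number, the Sdh genes a to d, and the Uqcr, Cox4 to Cox8 and Atp5 genes. The rule used names alone and no measured value. It matched 103 symbols, of which 83 had counts listed among 23896 genes with a symbol, namely 38 for complex I, 4 for complex II, 8 for complex III, 16 for complex IV and 17 for complex V. Where a gene had several transcripts, the most counted one represents it. Of the 20 matched symbols that were not listed, 17 are annotated as pseudogenes and 3 as protein-coding (Ndufb1, Ndufb4b and Ndufb4c), and these are not analysed here. The listed set holds Ndufs5-ps, a transcribed pseudogene, and it holds Ndufa4 and Ndufa4l2, which were counted with complex I by their symbols although their proteins are now placed in complex IV. The rule leaves out Cox4i1, Cyc1, Cycs and Ndufab1, which belong to the same chain and are described apart. The subunits encoded by mitochondrial DNA have other symbols and are not analysed here.

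Oxidative phosphorylation takes place in the inner mitochondrial membrane. Complex I oxidizes NADH and complex II oxidizes succinate, both pass electrons to ubiquinone, complex III hands them on to cytochrome c, complex IV reduces oxygen to water, and complex V uses the proton gradient built by complexes I, III and IV to make ATP. Erythroid precursors need mitochondria for heme and iron-sulfur cluster synthesis and clear them at the end of maturation, so the red cell has none.

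Each library had between 35294930 and 53899476 counts on transcripts. Values are given as CPM, counts scaled to library size with edgeR's TMM factors (0.921 to 1.07), or as TPM, which divides by transcript length and is used where levels of different genes are compared. A gene was called higher or lower at a Benjamini-Hochberg adjusted p below 0.05 in 1 edgeR quasi-likelihood fit over all 6 libraries and 18351 transcripts, and 80 members were tested among 12381 genes. The remaining members, Cox7b2, Cox8b and Cox8c, had 0 counts in every library. The erythroid markers rose: the summed level of 10 of them was 919 to 977 CPM at day 0 and 17419 to 19544 CPM at day 4, with 9 called higher and Klf1 called lower. Of the markers of other cell types, the 7 listed myeloid markers summed to 6.59 to 6.89 CPM at day 0 and 2.25 to 3.05 CPM at day 4 (S100a8 at 0), 5 mast cell markers went from 6.15 to 6.81 CPM to 0.022 to 0.028 CPM (Tpsab1 at 0), and 6 lymphocyte markers went from 11.8 to 17.8 CPM to 0.420 to 0.554 CPM, nearly all of it Ptprcap, with Cd8a at 0. The summed level of 5 megakaryocyte markers, in contrast, was higher at day 4, going from 271 to 277 CPM to 545 to 620 CPM, with 2 called higher and 3 lower. The part of these minor programmes in the values below was not tested.

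The day 0 cultures stood apart from each other. Between them, 13 of 80 members (16.25%) differed by more than 1.5-fold, against 10.96% of all tested genes, while only 1 member did so at day 2 and 3 at day 4. The 13 were Ndufa11, Ndufa12, Ndufb4, Ndufb6, Ndufs6, Uqcrh, Cox6a1, Cox7a1, Cox7c, Cox8a, Atp5g2, Atp5k and Atp5md, with replicate 2 the higher library in 8, and 12 of them have transcripts under 800 bases. For some named members values without one of these cultures are given, and the sums that hold Atp5k are also given without it. Ndufs6 and Atp5md, both called lower at day 4, have no such values here. Ndufs6 had 68.1 and 42.2 CPM at day 0 and 34.5 and 34.7 at day 4. Atp5md had 14.2 and 25.4 CPM at day 0 and 13.2 and 13.5 at day 4.

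Most members that changed fell, and most of those were already called lower at day 2. Of the 44 lower at day 4 against day 0, 38 were called lower at the first step, Uqcr11 at the second step only, and 5 (Ndufs6, Ndufv2, Cox7b, Atp5g2 and Atp5md) at neither step. The most counted of 2 listed transcripts of Ndufs6, used here and in the sums, is a non-coding RefSeq record. Its values describe that record and not the coding mRNA. At day 2 against day 0, 41 of 80 members (51.25%) were lower, beside 31.5% of all tested genes, and 4 were higher, beside 31%. Over days 0 to 4, 44 members (55%) were lower, beside 36.4% of all genes, and 5 were higher, beside 35.5%. From day 2 to day 4, 5 members (6.25%) were lower, beside 16.2% of all genes, and 3 were higher, beside 14%; fitted on these days alone, 17 members (21.25%) were lower, beside 23.5% of all genes. The median log2 fold change of the members was -0.37, -0.07 and -0.45 for day 2 against day 0, day 4 against day 2 and day 4 against day 0, and that of all tested genes 0.01, -0.0046 and -0.02. Restricting all genes to the 8482 with a mean of at least 10 CPM gave 33.6% lower at day 2 and 38.2% lower at day 4, both against day 0. The comparisons share libraries (day 0 is in the first and the last, day 2 in both steps), so they are not independent of each other. With libraries scaled to total counts alone the median of all genes moved to 0.21, -0.09 and 0.10, and the members then counted 9 higher and 24 lower (30%, beside 23.3% of all genes) at day 2, 3 higher and 10 lower at the second step, and 5 higher and 39 lower (48.75%, beside 32.4%) from day 0 to day 4. Relative to the median of all genes the members stood at -0.38, -0.07 and -0.44 under both scalings.

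Single libraries moved these counts. The count lower at day 2 was 27 without day 2 replicate 1 and 23 without day 2 replicate 2, when all genes lower were 23.6% and 23.3%, and the count higher was 9 without day 0 replicate 1 and 6 without day 0 replicate 2. For day 4 against day 2, the lower count was 16 without either day 0 culture, 1 and 0 without day 2 replicates 1 and 2, and 3 and 0 without day 4 replicates 1 and 2, and the higher count went between 1 and 9. The count lower at day 4 against day 0 held between 37 and 49, and the count higher between 4 and 9, with 9 without day 0 replicate 1 and 8 without day 0 replicate 2. In bulk libraries a smaller amount of an mRNA in every cell and fewer cells that carry it cannot be told apart.

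**Figure D1:**
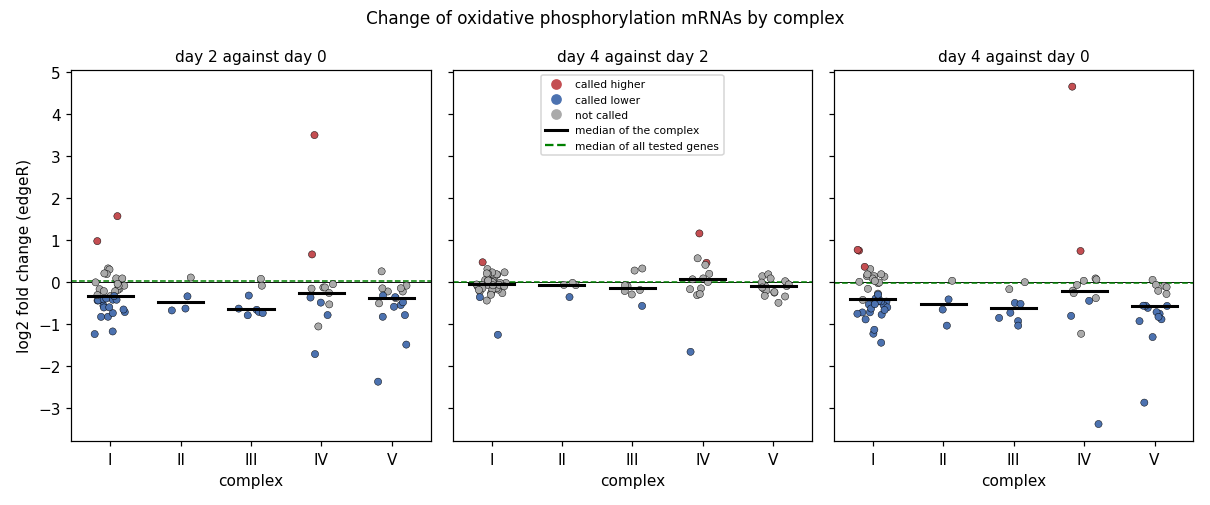
Log2 fold change (vertical axis) of each tested member by complex (horizontal axis) for the 3 comparisons, coloured by the edgeR call, with the median of the complex as a black bar and the median of all tested genes as a dashed line. Medians at day 4 against day 0 lie at -0.42, -0.54, -0.63, -0.21 and -0.57 for complexes I to V, and the point far above the rest is Cox6b2 at 4.65.

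The complexes did not fall to the same level. Summed over members, complex V had 4943 ± 368 CPM on day 0, 3129 ± 24.5 on day 2 and 2889 ± 114 on day 4 (SD, n = 2), and so kept 58.4% of its day 0 level. Much of that sum was Atp5b, Atp5a1 and Atp5c1, with means of 1937, 942 and 670 CPM at day 0 and 1044, 556 and 350 at day 4. By the median log2 fold change of members at day 4 against day 0, complex III (-0.63) was below complex V (-0.57). Complex III went from 1356 ± 14.0 to 935 ± 1.37 and 830.3 ± 42.7 CPM (61.3%), and complex II from 684 ± 33.3 to 508 ± 5.01 and 467 ± 14.3 CPM (68.3%). Complex I went from 3303 ± 275 to 2660.2 ± 10.4 and 2640.1 ± 106 CPM (79.9%). Complex IV held the most, with 882 ± 6.38, 791 ± 1.51 and 858 ± 48.5 CPM (97.3%), of which the rise of Cox6b2 made up a part: without that gene it kept 90.97%. Leaving out Atp5k, whose day 0 cultures differ most, complex V kept 60.6% and all members together 69.9%. Over all members the sum was 11167 ± 657, 8022 ± 21.9 and 7685 ± 200 CPM, or 71.8% of day 0 at day 2 and 68.8% at day 4. As TPM, which is not TMM-scaled and whose median over genes shifted by 0.21 and 0.04 (log2) at days 2 and 4, the sum was 89.0% and 76.2% of day 0 (92.8% and 79.7% without Atp5k), so that on this scale the drop after day 2 was no smaller than the one before it. Complex I then stood at 98.2% at day 2 and 86.8% at day 4, complex II at 82.1% and 65.3%, complex III at 89.9% and 69.6%, complex IV at 103% and 101% (93.2% at day 4 without Cox6b2), and complex V at 75.9% and 61.3% (85.2% and 69.6% without Atp5k). Complexes V and IV were at the ends of the order by either measure with all members included, complexes II and III changed places, and without Atp5k complex V was no longer the lowest in TPM at day 4. With 2 cultures per day an exact permutation test could not go below p = 0.333, so the sums carry no test.

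**Figure D2:**
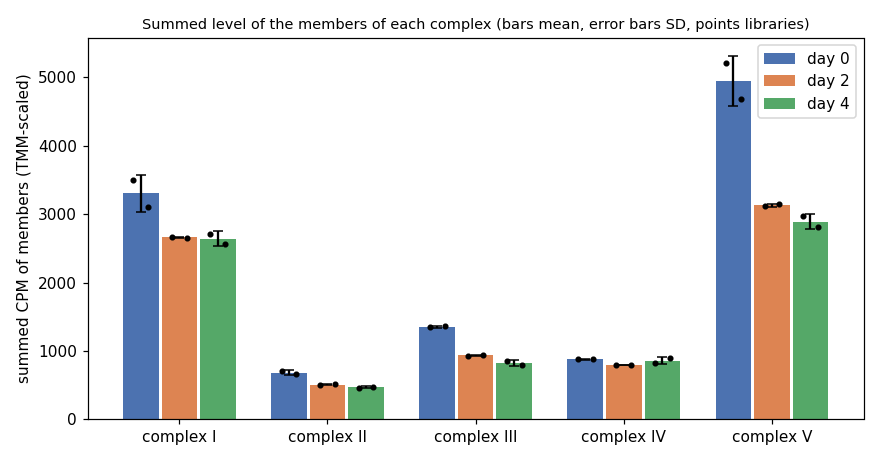
Summed CPM (vertical axis) of the members of complexes I to V at days 0, 2 and 4. Bars are means, error bars SD and points the 2 libraries of each day. Complex V falls from 4943 to 2889 and complex IV goes from 882 to 858.

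Sequence before the start sites was read from the RefSeq promoter windows of GRCm38.p6 (250 bases before to 50 after each start), which held 71 windows of 66 tested members. The letters of the NRF1 motif, GCGCATGCG, stood on either strand in 11.3% of member windows and 1.75% of 32851 windows of all genes. Those of the ETS motif of the GABP factor, CCGGAAG, stood in 23.9% and 8.86%, those of YY1, AAGATGG, in 15.5% and 6.34%, and those of GATA factors, AGATAA, in 8.45% and 11.2%. The member windows are those of tested genes, while the windows of all genes include genes that did not pass the filter. A share over tested genes alone was not computed. NRF1 and GABP are the classic activators of nuclear genes for the respiratory chain, and YY1 shares part of that work. Members with the NRF1 letters (8) had a median log2 fold change of -0.61 at day 4 against day 0, and the 58 without had -0.46. With the ETS letters (17) it was -0.50, and -0.46 in the 49 without. With the YY1 letters (11) it was -0.46, and -0.47 without, and with the GATA letters (6) it was -0.93, and -0.45 without. Lower at day 4 were 5 of 8 members with the NRF1 letters and 34 of 58 without, 9 of 17 with the ETS letters and 30 of 49 without, 7 of 11 with the YY1 letters and 32 of 55 without, and 4 of 6 with the GATA letters and 35 of 60 without, beside 36.4% of all genes. The medians and the called shares did not order the groups alike for ETS and YY1. The NRF1 letters and the ETS letters were both found in 4 members (Atp5k, Atp5l, Cox6a1 and Uqcr11).

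The following 6 stretches are shown because they set the member that rose most beside members of its own and other complexes. They were picked by hand and do not stand for all members. Of those with a window, 9 of 17 with ETS letters and 30 of 49 without were lower at day 4. Each runs from base -80 to base -10 before the RefSeq start, written 5′ to 3′ along the gene (all are on the minus strand), and capitals mark ETS letters on either strand. In GENCODE, whose transcripts can start farther up, 28, 14 and 20 of the bases shown for Cox6b1, Cox6a1 and Sdhd lie in annotated exons, among them the capitals of Cox6b1 and Cox6a1. Cox6b2 (chr7:4753104-4753174) and Cox7a2l (chr17:83514343-83514413) rose and hold none of the 4 motifs in the window. Cox6b1 (chr7:30626124-30626194, ETS letters from -28) and Cox6a1 (chr5:115348968-115349038, from -16) were not called at day 4. Uqcr11 (chr10:80406831-80406901, from -66) and Sdhd (chr9:50603859-50603929, from -46) fell. Cox6a1 also holds the NRF1 letters farther up, at -162, and Uqcr11 at -5, outside the stretches shown.
Cox6b2: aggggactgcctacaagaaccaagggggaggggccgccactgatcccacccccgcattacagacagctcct
Cox6b1: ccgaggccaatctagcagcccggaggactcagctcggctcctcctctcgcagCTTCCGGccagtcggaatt
Cox7a2l: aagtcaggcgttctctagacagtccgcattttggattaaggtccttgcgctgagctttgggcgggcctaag
Cox6a1: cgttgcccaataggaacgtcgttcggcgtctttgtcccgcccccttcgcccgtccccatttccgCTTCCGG
Uqcr11: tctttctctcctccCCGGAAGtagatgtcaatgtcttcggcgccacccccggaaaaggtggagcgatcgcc
Sdhd: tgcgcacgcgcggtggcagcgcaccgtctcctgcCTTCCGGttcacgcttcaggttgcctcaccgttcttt
These letters describe the sequence and not a bound site.

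**Figure D3:**
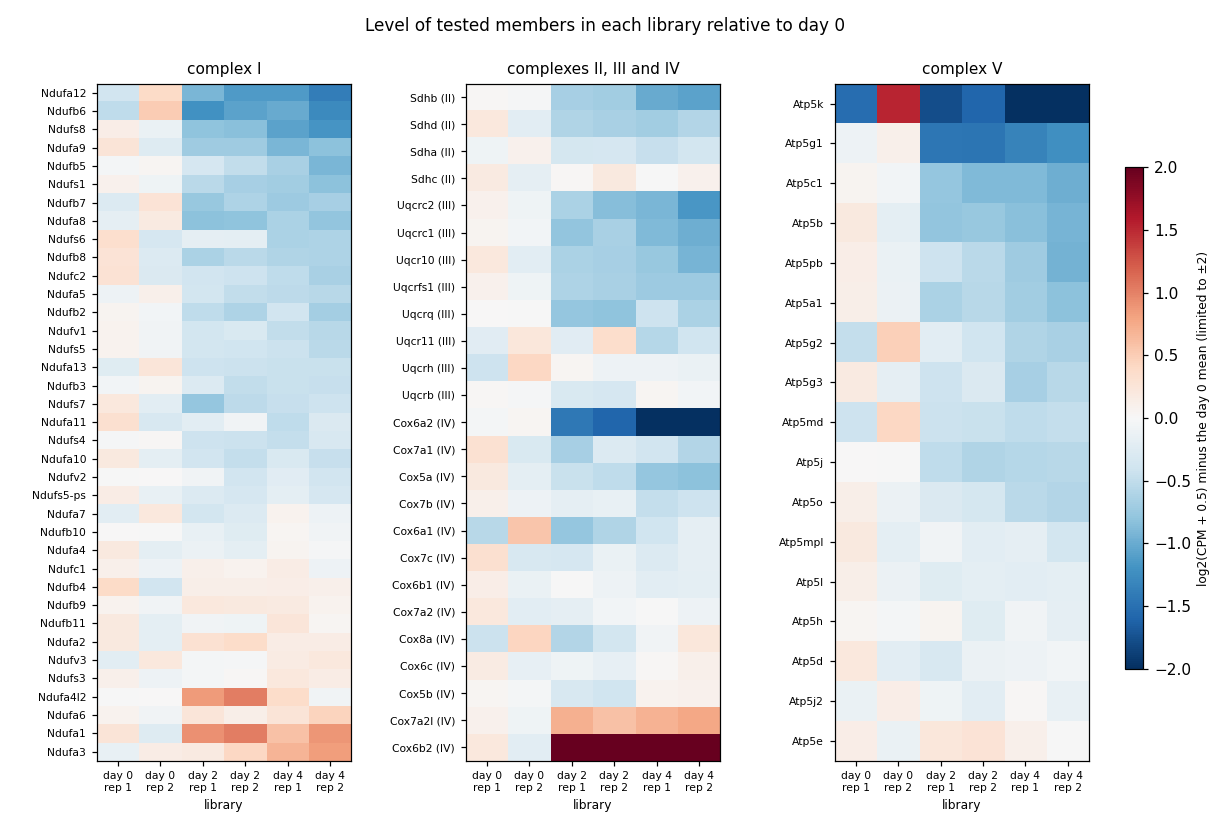
Tested members except 1 of complex I (rows, sorted within its complex by the change at day 4) in each library (columns), as log2(CPM + 0.5) minus the day 0 mean, with colours limited to ±2. Most rows turn blue at day 2, while Cox6b2 and Cox7a2l are red at days 2 and 4, and the day 0 columns differ in rows such as Atp5k and Ndufb6.

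Complex I has 7 core subunits that carry its flavin and iron-sulfur clusters, and a large set of accessory subunits around them. Of the 38 members by symbol, 21 were lower and 3 higher at day 4 against day 0 (19 and 2 at day 2, 2 and 1 between days 2 and 4), with a median log2 fold change of -0.42, which was -0.26 without day 0 replicate 1.

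Ndufs8, which holds 2 of the iron-sulfur clusters, had 89.0 and 73.1 CPM at day 0, 45.8 and 45.1 at day 2 and 38.2 and 35.3 at day 4. All later libraries were below the day 0 libraries (log2 fold change at day 4 -1.14, SE 0.12, edgeR adjusted p = 7.14e-06). Ndufs1, the largest core subunit, had 212 and 189 CPM at day 0, 138 and 126 at day 2 and 124 and 113 at day 4 (log2 fold change at day 4 -0.76, SE 0.11, edgeR adjusted p = 0.000109). Ndufv1, which binds NADH and the flavin, changed less and also without overlap, with 155 and 139 CPM at day 0, 114 and 119 at day 2 and 104 and 99.4 at day 4 (log2 fold change at day 4 -0.53, SE 0.11, edgeR adjusted p = 0.000841).

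Ndufs7 fell at the first step (its second step of 0.20 was not called, edgeR adjusted p = 0.318), with 175 and 130.2 CPM at day 0, 88.0 and 106 at day 2 and 109.7 and 113 at day 4 (log2 fold change at day 4 -0.46, SE 0.15, edgeR adjusted p = 0.0149). Its call at day 4 was lost without day 0 replicate 1 (-0.23, edgeR adjusted p = 0.0801), without either day 4 replicate (edgeR adjusted p = 0.0712 and 0.0519) and with total counts (edgeR adjusted p = 0.0562). Ndufv2 was called only narrowly (log2 fold change at day 4 -0.30, SE 0.12, edgeR adjusted p = 0.046), and it lost its call without either day 2 or either day 4 replicate (edgeR adjusted p between 0.0526 and 0.257). Ndufs3 was not called, with a log2 fold change of 0.18, and it was called higher without day 0 replicate 1 (0.28).

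Among the accessory subunits the largest falls were those of Ndufa12 and Ndufb6, and both lean on the uneven day 0 cultures. Ndufa12, an accessory subunit of the matrix arm, had 5.81 and 10.2 CPM at day 0, 3.88 and 3.24 at day 2 and 3.27 and 2.65 at day 4 (log2 fold change at day 4 -1.45, SE 0.26, edgeR adjusted p = 0.00039), and -0.99 without day 0 replicate 2. Ndufb6, a membrane arm subunit, had 43.4 and 88.5 CPM at day 0, 26.5 and 29.2 at day 2 and 30.7 and 25.4 at day 4 (log2 fold change at day 4 -1.24, SE 0.26, edgeR adjusted p = 0.00111), and -0.64 without day 0 replicate 2 (edgeR adjusted p = 0.000321). Both day 0 libraries were still above every later library for these genes. In all, 59.0% of the 31-base words of Ndufa12 also occur in transcripts of other genes. Its counts could therefore mix with those of near-copies, or could lack reads that fit several places, which was not tested. Ndufb5 had 144 and 152 CPM at day 0, 117 and 105 at day 2 and 94.3 and 78.1 at day 4 and was called lower at both steps, by log2 fold changes of -0.42 and -0.36. Calls of the second step moved with single libraries, as given above.

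Ndufa3, Ndufa1 and Ndufa6, all small accessory subunits, went the other way. Ndufa3 had 38.6 and 47.5 CPM at day 0, 48.3 and 57.3 at day 2 and 68.9 and 77.1 at day 4 (log2 fold change at day 4 0.76, SE 0.13, edgeR adjusted p = 0.000348). Its day 4 libraries were above all others, and its exons overlap those of Tfpt on the opposite strand, so that without strand the reads of the pair cannot be told apart. Exons of 26 members overlap another gene on the opposite strand, among them Ndufs1, Ndufb5 and Ndufb6 above. Ndufa1, encoded on the X chromosome, had 16.3 and 11.1 CPM at day 0, 25.9 and 27.8 at day 2 and 20.5 and 25.4 at day 4 (log2 fold change at day 4 0.75, SE 0.18, edgeR adjusted p = 0.00285), with 0.48 without day 0 replicate 2 and no later library below a day 0 library. Ndufa6 had 45.2 and 41.1 CPM at day 0, 51.2 and 46.9 at day 2 and 51.5 and 59.1 at day 4 (log2 fold change at day 4 0.36, SE 0.12, edgeR adjusted p = 0.016), and its call was lost without day 4 replicate 2 (0.25, edgeR adjusted p = 0.178).

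Complex II is the succinate dehydrogenase of the citric acid cycle, with the flavoprotein Sdha, the iron-sulfur protein Sdhb and the membrane anchors Sdhc and Sdhd. Of these 4 genes, 3 were lower at day 2 and at day 4 against day 0 (none was higher by edgeR, at an unadjusted p below 0.05 or by DESeq2), and the median log2 fold change at day 4 was -0.54. Sdhb had 177 and 172 CPM at day 0, 109.9 and 108 at day 2 and 86.8 and 82.4 at day 4, a fall at both steps to a fitted level 2.06-fold lower (log2 fold change at day 4 -1.04, SE 0.10, edgeR adjusted p = 3.96e-06). The days did not overlap at either step, though calls of the second step moved with single libraries, as given above. Sdhd, whose promoter stretch is shown above, had 205 and 153 CPM at day 0, 117 and 113 at day 2 and 109 and 117 at day 4 (log2 fold change at day 4 -0.66, SE 0.14, edgeR adjusted p = 0.00115), with -0.44 without day 0 replicate 1. Sdha had 236 and 266 CPM at day 0, 197 and 198 at day 2 and 182 and 193 at day 4 (log2 fold change at day 4 -0.42, SE 0.11, edgeR adjusted p = 0.00568), and it missed the threshold without day 4 replicate 1 (-0.38, edgeR adjusted p = 0.0537). Sdhc, in contrast, had 90.2 and 70.6 CPM at day 0, 80.7 and 92.0 at day 2 and 79.1 and 84.5 at day 4, and its libraries overlapped across days (log2 fold change at day 4 0.03, SE 0.13, edgeR adjusted p = 0.868).

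Complex III carries electrons from ubiquinol to cytochrome c. Of its 8 members 6 were lower at day 4 against day 0 and 6 at day 2 against day 0, with medians of -0.63 and -0.65, and none was higher by edgeR, at an unadjusted p below 0.05 or by DESeq2. Uqcrc2, a core protein, had 374 and 335 CPM at day 0, 228 and 196 at day 2 and 187 and 158 at day 4 (log2 fold change at day 4 -1.04, SE 0.13, edgeR adjusted p = 2.99e-05). Uqcrc1, the other core protein, had 307 and 287 CPM at day 0, 172 and 189.8 at day 2 and 159.9 and 151 at day 4 (log2 fold change at day 4 -0.93, SE 0.11, edgeR adjusted p = 2.02e-05). For both, every later library was under every day 0 library.

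The small subunit Uqcr10 had 183 and 137 CPM at day 0, 102 and 100.1 at day 2 and 93.7 and 82.7 at day 4 (log2 fold change at day 4 -0.86, SE 0.14, edgeR adjusted p = 0.000195), and Uqcrfs1, the Rieske iron-sulfur protein, had 111 and 97.9 CPM at day 0, 67.7 and 66.7 at day 2 and 62.6 and 63.0 at day 4 (log2 fold change at day 4 -0.74, SE 0.10, edgeR adjusted p = 7.05e-05). Uqcrq dropped at day 2 and stood a little higher at day 4, with 126 and 124 CPM at day 0, 72.6 and 71.5 at day 2 and 93.7 and 80.05 at day 4, a second step that was not called (log2 fold change 0.27, edgeR adjusted p = 0.0811). Uqcr11 was the member called lower at the second step alone, with 78.1 and 106 CPM at day 0, 77.5 and 116 at day 2 and 61.0 and 69.1 at day 4 (log2 fold change -0.57 for day 4 against day 2, edgeR adjusted p = 0.0396). Its day 2 cultures lie apart, and calls of this step moved with single libraries, as given above. Uqcrh, the hinge protein and the member with the second highest level per length (1194 TPM on average), was not called, and its day 0 cultures decided its direction: they had 142 and 253 CPM, and the log2 fold change at day 4 was 0.29 without replicate 2 (edgeR adjusted p = 0.0255) and -0.54 without replicate 1.

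Complex IV is the oxygen-consuming complex, and several of its small nuclear subunits exist as paralogs used in different tissues. Of 16 members listed 13 were tested, and at day 4 against day 0, 3 were lower and 2 higher (4 and 2 at day 2, 1 and 2 between days 2 and 4). These are 23.1% lower and 15.4% higher at day 4, beside 36.4% and 35.5% of all genes. The median at day 4 was -0.21, and it was -0.075 without day 0 replicate 1 and -0.10 with total counts. Not called were 8 members, among them Cox6c (log2 fold change 0.06), Cox7a2 (-0.07) and Cox6b1 (-0.21).

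Cox6b2 rose most of all members. It is the testis form of a subunit at the dimer interface of complex IV. The gene, at chr7:4751792-4753094 (GRCm38), has 6 listed transcripts, and the most counted one, used here, is the non-coding RefSeq record NR_110411. Its other transcripts enter neither the values nor the share of the pair below, so these describe that record and not the coding mRNA. Cox6b2 had 2.72 and 1.91 CPM at day 0, 25.7 and 26.3 at day 2 and 46.6 and 68.9 at day 4, with no overlap between any pair of days. The log2 fold change was 3.50 at the first step (SE 0.22, edgeR adjusted p = 4.98e-07), 1.15 at the second (SE 0.18, edgeR adjusted p = 0.00134) and 4.65 from day 0 to day 4 (SE 0.22, edgeR adjusted p = 3.72e-08), a 25.1-fold rise, and with any library left out it lay between 4.33 and 4.91. None of its 31-base words occur in other genes and no exon of another gene overlaps its exons. Cox6b1, the form of most tissues, had 133 and 111 CPM at day 0, 121 and 114 at day 2 and 105 and 106 at day 4 (log2 fold change at day 4 -0.21, SE 0.12, edgeR adjusted p = 0.122). Of the summed TPM of the pair, the share of Cox6b2 (mean ± SD, n = 2) was 2.06 ± 0.233% before DMSO, 19.8 ± 0.987% at day 2 and 37.6 ± 6.21% at day 4. Per length it went from 13.7 ± 3.70 to 356 ± 90.3 TPM.

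Cox6a2, the heart and muscle form of another subunit, went down instead. It had 6.57 and 6.97 CPM at day 0, 2.20 and 1.91 at day 2 and 1.19 and 0.177 at day 4, from 268 and 346 counts at day 0 to 43 and 8 at day 4, and was lower at both steps (log2 fold change at day 4 -3.39, SE 0.46, edgeR adjusted p = 4.99e-05). The day 4 cultures lie 6.74-fold apart, with -2.51 without replicate 2 and -5.24 without replicate 1. Its exons overlap those of Itgad on the opposite strand. Its partner Cox6a1 had 74.1 and 161 CPM at day 0, 63.8 and 72.02 at day 2 and 83.1 and 96.6 at day 4, and was not called at day 4 (log2 fold change at day 4 -0.39, SE 0.26, edgeR adjusted p = 0.204), with -0.84 without day 0 replicate 1 and 0.27 without replicate 2. Cox6a2 made up 5.22 ± 2.41% of the TPM of the pair at day 0 and 0.671 ± 0.732% at day 4.

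Cox7a2l encodes a relative of the Cox7a subunits that links complexes III and IV into supercomplexes. It had 82.7 and 74.0 CPM at day 0, 128 and 118 at day 2 and 127 and 134 at day 4 (log2 fold change at day 4 0.74, SE 0.11, edgeR adjusted p = 9.26e-05), and all later libraries were above the day 0 libraries, and the level was reached by day 2. Its share of the Cox7a TPM was 43.3 ± 3.29% at day 0, 56.8 ± 3.02% at day 2 and 57.2 ± 2.12% at day 4. Cox7a1, the muscle form, was near the limit of detection with 31 counts or fewer per library.

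Cox5a and Cox7b were the other members called lower. Cox5a, a matrix-side subunit, had 129.98 and 100 CPM at day 0, 83.1 and 79.8 at day 2 and 66.5 and 64.3 at day 4 (log2 fold change at day 4 -0.81, SE 0.13, edgeR adjusted p = 0.000167). Cox7b had 129.8 and 112 CPM at day 0, 107 and 109 at day 2 and 86.7 and 89.8 at day 4 (log2 fold change at day 4 -0.45, SE 0.11, edgeR adjusted p = 0.00301). Cox5b, also on the matrix side, dipped and returned: it had 18.2 and 17.1 CPM at day 0, 14.0 and 13.3 at day 2 and 18.6 and 18.7 at day 4, with a log2 fold change of -0.37 at the first step (edgeR adjusted p = 0.0176) and 0.45 at the second (edgeR adjusted p = 0.0154). Calls of both steps moved with single libraries, as given for the counts above. Cox8a, with 69.5 and 127 CPM in the day 0 cultures, took either direction at day 4, -0.35 without replicate 1 (edgeR adjusted p = 0.022) and 0.52 without replicate 2 (edgeR adjusted p = 0.00287), and it was not called with both.

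Ndufa4 and Ndufa4l2 form a pair of the same kind. Ndufa4 stayed between 141 and 185 CPM with a log2 fold change of 0.001 at day 4. Ndufa4l2, the hypoxia-inducible form, had 0.441 and 0.443 CPM at day 0, 1.197 and 1.42 at day 2 and 0.720 and 0.398 at day 4, with log2 fold changes of 1.57 at the first step (edgeR adjusted p = 0.00147) and -1.26 at the second (edgeR adjusted p = 0.0128). It rests on 18 to 70 counts per library, its share of the TPM of the pair stayed below 0.657%, and its exons overlap those of Shmt2 on the opposite strand. The pair of calls was lost without either day 2 replicate, without day 4 replicate 2 and with DESeq2.

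**Figure D4:**
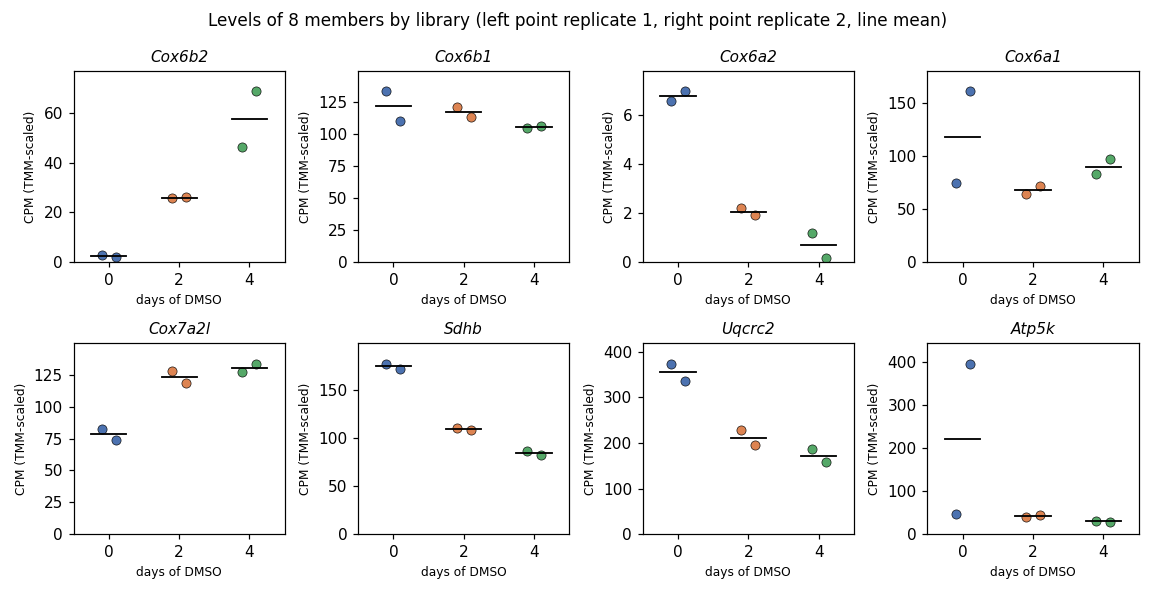
CPM (vertical axes, from 0) of 8 members against days of DMSO, with 1 point per library and the mean as a line. Cox6b2 climbs from 1.91 and 2.72 to 46.6 and 68.9 while Cox6b1 stays between 105 and 133, Sdhb and Uqcrc2 step down, and the day 0 points of Atp5k and Cox6a1 lie far apart.

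Complex V is the ATP synthase, with a catalytic F1 part in the matrix and a membrane part with a ring of c subunits. Of 17 members 11 were lower at day 4 against day 0 and 9 at day 2, and none was higher by edgeR, at an unadjusted p below 0.05 or by DESeq2. For day 4 against day 2 none was called by edgeR or DESeq2, and 2 were lower at an unadjusted p below 0.05. The medians were -0.39, -0.10 and -0.57 for day 2 against day 0, day 4 against day 2 and day 4 against day 0. In F1 3 of 5 were lower at day 4 (median -0.76), and of the others 8 of 12 (median -0.57).

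The catalytic beta subunit Atp5b had the highest level of all members, 3313 ± 722 TPM at day 0 and 1862 ± 125 TPM at day 4. Its libraries had 2203 and 1670.3 CPM at day 0, 1107 and 1131 at day 2 and 1079 and 1009.8 at day 4 (log2 fold change at day 4 -0.89, SE 0.15, edgeR adjusted p = 0.000288), a level 1.86-fold lower in the fit. Without day 0 replicate 1 that log2 fold change was -0.68. The alpha subunit Atp5a1 had 1015 and 870.1 CPM at day 0, 607 and 642 at day 2 and 578 and 535 at day 4 (log2 fold change at day 4 -0.76, SE 0.13, edgeR adjusted p = 0.000267), and the gamma subunit Atp5c1, the rotating shaft, had 696 and 643 CPM at day 0, 391 and 361 at day 2 and 361 and 339.6 at day 4 (log2 fold change at day 4 -0.93, SE 0.12, edgeR adjusted p = 3.06e-05). All later libraries of these genes lay below their day 0 libraries. The delta and epsilon subunits, Atp5d and Atp5e, were not called, with log2 fold changes of -0.10 and 0.05, so the parts of F1 differed in what was called, a difference that was not tested.

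The c subunit of the ring is made from 3 genes that encode the same mature protein. Atp5g1 had 30.1 and 34.5 CPM at day 0, 11.6 and 11.4 at day 2 and 12.5 and 13.5 at day 4 (log2 fold change at day 4 -1.31, SE 0.13, edgeR adjusted p = 3.68e-06). Atp5g3, which held the largest share of the counts (76.1 ± 8.11% at day 0 and 80.7 ± 0.844% at day 4), had 228 and 178 CPM at day 0, 151 and 164 at day 2 and 127 and 138 at day 4 (log2 fold change at day 4 -0.62, SE 0.13, edgeR adjusted p = 0.00144). Atp5g2 had 20.6 and 40.4 CPM at day 0, 24.9 and 21.9 at day 2 and 18.9 and 18.2 at day 4 (log2 fold change at day 4 -0.72, SE 0.24, edgeR adjusted p = 0.0184), and its call was lost without day 0 replicate 2 (-0.16, edgeR adjusted p = 0.263) and without either day 4 replicate (edgeR adjusted p = 0.0532 and 0.0698). Other genes share 87.7% of its 31-base words, so the limit given for Ndufa12 also holds for its counts and for the shares of the 3 genes. The share of Atp5g1 in the counts of the 3 genes was 12.2 ± 2.02% at day 0, 5.97 ± 0.290% at day 2 and 7.94 ± 0.0486% at day 4.

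Atp5k, a small membrane subunit, had the largest fitted fall among the members called lower in complex V, with 47.4 and 396 CPM at day 0, 39.9 and 45.5 at day 2 and 30.8 and 29.7 at day 4. Its day 0 cultures differed 8.35-fold, the log2 fold change of -2.88 (SE 0.66, edgeR adjusted p = 0.00234) became -0.66 without day 0 replicate 2 (edgeR adjusted p = 8.17e-05), and only the direction was common to the libraries. Atp5pb, a stalk subunit, had 132 and 109.6 CPM at day 0, 89.7 and 82.8 at day 2 and 73.4 and 62.2 at day 4 (log2 fold change at day 4 -0.83, SE 0.13, edgeR adjusted p = 0.000119). Atp5o, which ties the stalk to F1, and Atp5j fell less, each with a log2 fold change of -0.57 at day 4 against day 0.

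Set out by both steps, 37 members were lower at the first step and not called at the second, 46.25% of the members and 20.8% of all tested genes. In the set lower at both steps were 3 members (Ndufb5, Sdhb and Cox6a2; 9.05% of all genes), 1 was higher at both (Cox6b2; 8.33%), 1 lower then higher (Cox5b; 1.68%), 1 higher then lower (Ndufa4l2; 2.18%), and 33 were not called at either. Both steps use the day 2 libraries, so these counts are a description and not separate evidence. These counts changed with libraries: lower at both was 9 and 12 without day 0 replicates 1 and 2, 2 without day 4 replicate 1 and 0 without day 4 replicate 2 or either day 2 replicate, and lower then higher was 7 and 3 without day 0 replicates 1 and 2 and 0 without any other library.

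Long and short members were called at different shares, a difference that was not tested. Of 37 members with transcripts of at least 800 bases, 26 were lower and 1 higher at day 4 against day 0 (70.3% and 2.70%, median -0.53), beside 36.5% and 36.2% of all genes of that length. Of 42 shorter ones 18 were lower and 4 higher (42.9% and 9.52%, median -0.34), beside 35.8% and 25.03% of all genes of that length (median -0.18). Across the 79 members with a length, Spearman's correlation of length and log2 fold change was -0.21, and across 12229 tested genes it was 0.16, both as a description across genes that share the libraries. The shorter transcripts also held 12 of the members on which the day 0 cultures disagreed. Lengths are those of matched GENCODE transcripts, which can be longer than the counted ones. The part of transcript length in the calls was not tested.

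Outside the symbol rule, all 4 tested genes were lower at day 4 against day 0, namely Cox4i1 (log2 fold change at day 4 -0.31, SE 0.12, edgeR adjusted p = 0.0408), Cyc1 (log2 fold change at day 4 -0.86, SE 0.14, edgeR adjusted p = 0.000165), Cycs, which is cytochrome c itself (log2 fold change at day 4 -1.77, SE 0.16, edgeR adjusted p = 2.11e-06), and Ndufab1 (log2 fold change at day 4 -0.34, SE 0.13, edgeR adjusted p = 0.0398). Cox4i1 was lower at the first step (-0.71, edgeR adjusted p = 0.000508) and higher at the second (0.40, edgeR adjusted p = 0.032). Cycs had 21.7 and 27.0 CPM at day 0, 8.72 and 7.14 at day 2 and 7.15 and 7.14 at day 4. Cox4i1 and Ndufab1 lost their calls with total counts (edgeR adjusted p = 0.175 and 0.159) and with several libraries left out. Cox4i2, the paralog of Cox4i1, had 5 counts in all and was not tested.

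Of 46 assembly factors, 29 were lower and 4 higher at day 4 against day 0 (26 and 4 at day 2, 9 and 2 between days 2 and 4), with a median of -0.58. The lower share was 63% at day 4, beside 36.4% of all genes, and 19.6% for the second step, beside 16.2%. The largest fall was that of Uqcc2, needed for cytochrome b of complex III, with 64.4 and 94.5 CPM at day 0, 29.0 and 26.6 at day 2 and 18.7 and 19.3 at day 4 (log2 fold change at day 4 -2.06, SE 0.17, edgeR adjusted p = 1.08e-06). Cox20 rose most of the factors. It is a chaperone of the complex IV subunit COX2 and had 5.74 and 5.36 CPM at day 0, 13.1 and 11.3 at day 2 and 12.1 and 11.2 at day 4 (log2 fold change at day 4 1.07, SE 0.15, edgeR adjusted p = 5.55e-05).

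Of 14 tested nuclear-encoded regulators of mitochondrial genes, 11 were lower and 1 higher at day 4 (8 and 1 at day 2, and 6 lower between days 2 and 4), with a median of -0.66. That is 78.6% lower at day 4, beside 36.4% of all genes. The list mixes factors of nuclear genes with factors that act on mitochondrial DNA or its mRNAs, such as Tfam and Lrpprc. Tfam, which packs mitochondrial DNA, had 82.8 and 71.8 CPM at day 0, 51.8 and 48.7 at day 2 and 34.9 and 34.5 at day 4. It was lower at both steps (log2 fold change at day 4 -1.16, SE 0.11, edgeR adjusted p = 3.8e-06). Lrpprc, which stabilizes mitochondrial mRNAs, had 165 and 156 CPM at day 0, 113 and 111 at day 2 and 89.7 and 69.6 at day 4 (log2 fold change at day 4 -1.01, SE 0.13, edgeR adjusted p = 2.91e-05). The log2 fold change at day 4 was -0.65 for Nrf1, -0.48 for Gabpa, -1.08 for Esrra and -0.95 for Ppargc1b, each called lower, and 0.49 for Gabpb1, called higher, a call lost without day 0 replicate 2 (0.28, edgeR adjusted p = 0.0817) and without day 4 replicate 2 (edgeR adjusted p = 0.0544). The Gabpa exons overlap those of Atp5j on the opposite strand. Ppargc1a had 1 count in all 6 libraries together.

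Of 13 enzymes of the citric acid cycle, 12 were lower and 1 higher at day 4 (11 lower at day 2, 3 lower and 1 higher between days 2 and 4), with a median of -0.70 and 92.3% lower at day 4, beside 36.4% of all genes. Idh3a fell most, with 193 and 159.6 CPM at day 0, 80.1 and 75.7 at day 2 and 51.1 and 46.6 at day 4 (log2 fold change at day 4 -1.85, SE 0.12, edgeR adjusted p = 2.69e-07), and Ogdh was the enzyme that rose, with 133 and 114 CPM at day 0, 134 and 139.9 at day 2 and 177 and 179 at day 4 (log2 fold change at day 4 0.54, SE 0.11, edgeR adjusted p = 0.00119). Of 18 genes of mitochondrial import, carriers and chaperones, 17 were lower at day 4 against day 0, 17 at day 2 and 7 between days 2 and 4, with a median of -1.52 and 94.4% lower at day 4, beside the same 36.4%. The ADP/ATP carrier Slc25a5 had 310.4 and 319 CPM at day 0, 95.0 and 93.6 at day 2 and 70.0 and 67.7 at day 4 (log2 fold change at day 4 -2.19, SE 0.11, edgeR adjusted p = 3.84e-08). The phosphate carrier Slc25a3, which brings complex V its phosphate, was the member of that list that was not called (log2 fold change -0.22).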

How the data were processed

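Libraries of MEL cells were made at days 0, 2 and 4 of 2% DMSO, with 2 cultures per day, and grouped by the time and replicate in the labels. The authors trimmed reads with cutadapt, aligned them to mm10 with TopHat and deposited raw counts per RefSeq transcript, unnormalized and unpooled. The labels also name HTSeq and DESeq2 without a role, and the strand setting of the counting, which bears on overlapping antisense genes, is not given in the sources used here. The paper names a stranded library kit. Exons of 26 members overlap another gene on the opposite strand, and those of 5 members on the same strand. Uqcrc2, Atp5a1 and Atp5pb are among the first, and Atp5o, which overlaps Donson, is among the second. The part of these overlaps in the counts was not tested. Reads on no feature (50.5% to 58.4% of the reads on transcripts or on no feature) were left out.

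Counts were tested with edgeR 4.0.16 (R 4.3.3; TMM, filterByExpr by day, glmQLFit, glmQLFTest, 1 mean per day, Benjamini-Hochberg over 18351 transcripts). The procedure was also run on simulated counts. These lacked the uneven day 0 cultures of the data, so that run does not vouch for calls that rest on those cultures. SE came from the F statistic. Intervals between 2 cultures are wide, and depth was 35294930 to 53899476 counts. A RefSeq table of GRCm38 and GENCODE gave the symbols. TPM used a length found for 98.3% of genes, that of the longest GENCODE transcript matched to the counted RefSeq record. This length can exceed that of the counted transcript, which was not tested gene by gene. TPM sums, TPM shares and the split by transcript length carry this limit. Atp5g counts were compared directly because the length found for Atp5g1 does not match its counted transcript. Same-numbered cultures were not taken as pairs, since their deviations correlated by 0.032 to 0.079.

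The members and lists were chosen with earlier results of these data known. Genes are named by a rule: in each complex the 3 largest called rises and falls at day 4 against day 0, complex II, paralogs, the 5 highest members by TPM, core complex I, opposite steps, untested members, and listed regulators and extremes of each list. Ndufb5, Uqcrfs1, Uqcrq, Uqcr11, Cox6c, Atp5d, Atp5e, Atp5pb, Atp5o, Atp5j and Slc25a3, and those named for replicate spread, were picked with their values in view. The values of 1 core gene of complex I are not reported here, though it enters the counts, sums and medians. Also tried were DESeq2 1.42.0, relative log expression factors, total counts, scaling without globin transcripts, no filter, 1 transcript per gene, only the days compared, a replicate block, a size limit of 0.5 on the log2 scale, and leaving out each library.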

Additional observations from a re-analysis of the deposited data

Results flagged for a closer look

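Reads that fell on no feature enter none of the comparisons. They were 58.1% of reads on transcripts or no feature in the lowest day 4 library and 54.1% in the highest day 0 library. The share at day 4 was thus above every day 0 library. The part of these reads in the member values was not tested.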

How the results depend on the processing

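At day 2 against day 0, the 4 members higher became 9 with total counts and 4 to 9 with a library left out, and the 41 lower became 24 with total counts, 25 under a size limit of 0.5 on the log2 scale and 23 to 50 with a library left out. For day 4 against day 2, the 3 higher became 5 with no filter, 9 with only the 2 days compared, 1 at the 0.5 limit and 1 to 9 with a library left out, and the 5 lower became 10 with total counts, 9 with no filter, 17 with only the 2 days compared, 3 with DESeq2, 3 at the 0.5 limit and 0 to 16 with a library left out. Over days 0 to 4 the ranges with a library left out were 4 to 9 higher and 37 to 49 lower. Leave-one-out medians at day 4 against day 0 ran from -0.43 to -0.26 for complex I, -0.60 to -0.47 for II, -0.69 to -0.63 for III, -0.28 to -0.075 for IV and -0.59 to -0.56 for V, and total counts gave -0.52 for III and -0.10 for IV. By steps, members higher at both were 2 with total counts or the replicate block and 1 to 2 with a library left out, lower then higher 0 with total counts, 2 with the block, 2 with DESeq2 and 0 to 7, higher then lower 0 with DESeq2 and 0 to 1, lower at both 0 to 12, and lower at the first step only 21 with total counts and 23 to 41. Total counts shift all genes as given above, and the cause of the other changes was not tested. Cox8a turned to -0.35 without day 0 replicate 1 (0.52 without replicate 2) and Uqcrh to 0.29 without day 0 replicate 2 (-0.54 without replicate 1). The replicate block gave 43 lower and 6 higher at day 2, 6 and 4 for day 4 against day 2, and 45 and 5 at day 4 against day 0, and of 56 genes followed singly none changed its call at day 4 against day 0 under it. The correlation of deviations between same-numbered cultures was 0.032 to 0.079. With 2 cultures per day, the calls of members close to the threshold moved with single libraries, as for Ndufv2.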
